A study of Bos taurus with 31 samples.

Results

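The comparison described here is that of liver gene expression between GLY-exposed and control dairy cows, all fed the high proportion of concentrate. It covers 16 of the 31 liver libraries of the series, 8 from GLYHC cows and 8 from CONHC cows. Genes with at least 20 reads summed over these 16 libraries were kept, which left 14987 of the 24616 genes in the count table. All animals were lactating German Holstein cows, and each library came from a puncture biopsy taken in week 16 of the feeding trial. Both groups received a total mixed ration with 60% concentrate on a dry matter basis. In GLYHC the ration held plant material with residues of a GLY formulation applied before harvest, whereas CONHC received control feed. The exposure is thus to a formulation with its additives, fed as residues, and control feed carried trace GLY of its own. The other 15 libraries, from cows at 30% concentrate (8 CONLC, 7 GLYLC), served only to show whether a difference was also present at the lower concentrate level. No cow was in more than 1 group.

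GLY is a glycine analogue that blocks an enzyme of aromatic amino acid synthesis in plants and many microbes, which animals lack. The liver takes up compounds absorbed from the gut, modifies them by oxidation (phase I) and conjugation (phase II), and exports them into bile or blood. In ruminants it also makes most of the body's glucose, largely from propionate formed in the rumen, so concentrate feeding sets much of its work. The gene groups described below therefore cover xenobiotic metabolism, glycine and serine use, glucose, fat and cholesterol metabolism, stress responses and the cell types of a liver biopsy.

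Reads assigned to genes were between 11675775 and 29881860 per cow in CONHC and between 11713412 and 32775144 in GLYHC. The mean difference was 0.33 on the log2 scale (exact two-sided permutation test, p = 0.199). The 16 hepatocyte markers tested, such as albumin and apolipoproteins, summed to between 177368 and 234080 TMM-scaled CPM (counts scaled to a common library size) in CONHC, with a median of 199510, and to between 163869 and 215482 in GLYHC, with a median of 173931. The sums of 5 of the 8 GLYHC cows were below the lowest CONHC cow, and 12 of the 16 markers had the lower mean in GLYHC. The part of this difference in the results below was not tested. The first principal component of the 16 libraries held 22.1% of the variance and did not separate the groups beyond their spread (exact permutation test, p = 0.72).

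No gene passed the test. With edgeR's quasi-likelihood test, 0 of 14987 genes (0%) had an unadjusted p under 0.05 together with a Benjamini-Hochberg adjusted p under 0.1, and the smallest adjusted p was 0.991. At an unadjusted p under 0.05 alone there were 600 genes, of which 339 (2.26%) had the higher mean in GLYHC and 261 (1.74%) the lower. The median log2 fold change (GLYHC minus CONHC) over all genes was 0.0046. DESeq2 on the same counts called 5 genes (0.0334%) under the same thresholds, with 635 at an unadjusted p under 0.05. In 2 genes (0.0133%) the groups did not overlap, and in both every GLYHC cow was below every CONHC cow. Higher and lower therefore refer to group means below, and no edgeR difference among them passed the threshold.

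**Figure D1:**
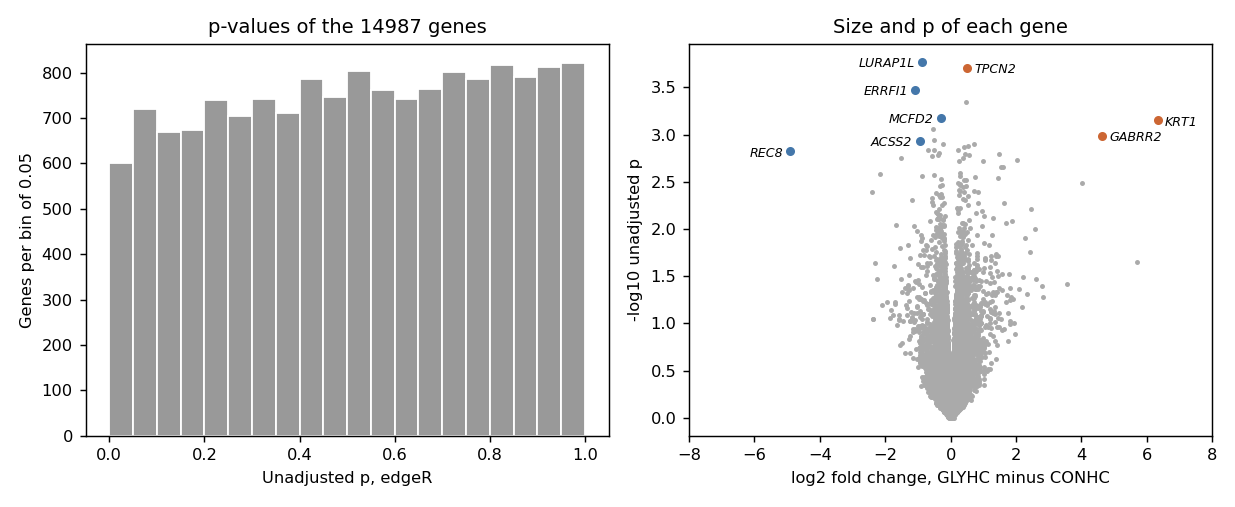
Left, number of genes per bin of 0.05 of the unadjusted edgeR p; right, log2 fold change (GLYHC minus CONHC) against -log10 of that p, with 1 point per gene and 8 genes labelled. The first bin holds 600 of the 14987 genes and fewer than any other bin, and LURAP1L, TPCN2 and ERRFI1 lie at the top.

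The study named LURAP1L, ERRFI1, MCFD2 and TPCN2 as GLY-responsive, having chosen them on these same cows, so their values here are a description. Its quantitative PCR on the same RNA gave the same directions. There the difference was significant for ERRFI1, a trend for LURAP1L and not significant for MCFD2 or TPCN2. The study also wrote that its GLY-responsive genes could be false positives. All 4 were among the 5 calls of DESeq2. LURAP1L, which encodes a small adaptor protein related to LURAP1, had the smallest edgeR p of all genes. Its level was 3.86 CPM in the lowest CONHC cow, 6.52 at the median and 10.3 in the highest, against 2.11, 3.93 and 4.66 in GLYHC. Only 5 of the 64 pairs of 1 GLYHC and 1 CONHC cow had the GLYHC cow higher, and the CONHC cow that reached into the GLYHC range was cow 144. The log2 fold change was −0.86 (SE 0.18, unadjusted p = 0.00017), and between 44 and 190 reads per cow lay behind it.

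ERRFI1 encodes MIG6, a feedback inhibitor that binds and silences the epidermal growth factor receptor (EGFR). CONHC cows had a low of 110 CPM, a median of 341 and a high of 407, and GLYHC cows 76.0, 131 and 228. The 6 highest CONHC cows were above every GLYHC cow, whereas CONHC cows 144 (110 CPM) and 123 (183 CPM) lay within the GLYHC range. The log2 fold change was −1.08 (SE 0.24, unadjusted p = 0.00034).

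MCFD2 pairs with the lectin LMAN1 to carry coagulation factors out of the endoplasmic reticulum. It measured 164, 188 and 220 CPM (lowest, median, highest) in CONHC and 134, 154 and 167 in GLYHC. The groups overlapped only through CONHC cow 133, at 164 CPM. The log2 fold change was small but tight, at −0.30 (SE 0.07, unadjusted p = 0.00067).

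TPCN2, a cation channel of the lysosomal membrane, was the member of this set with the higher mean in GLYHC. Its values were 10.03, 11.74 and 14.2 CPM in CONHC and 13.7, 15.7 and 22.1 in GLYHC, and the GLYHC cow was higher in 63 of 64 pairs. The log2 fold change was 0.50 (SE 0.11, unadjusted p = 0.0002).

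**Figure D2:**
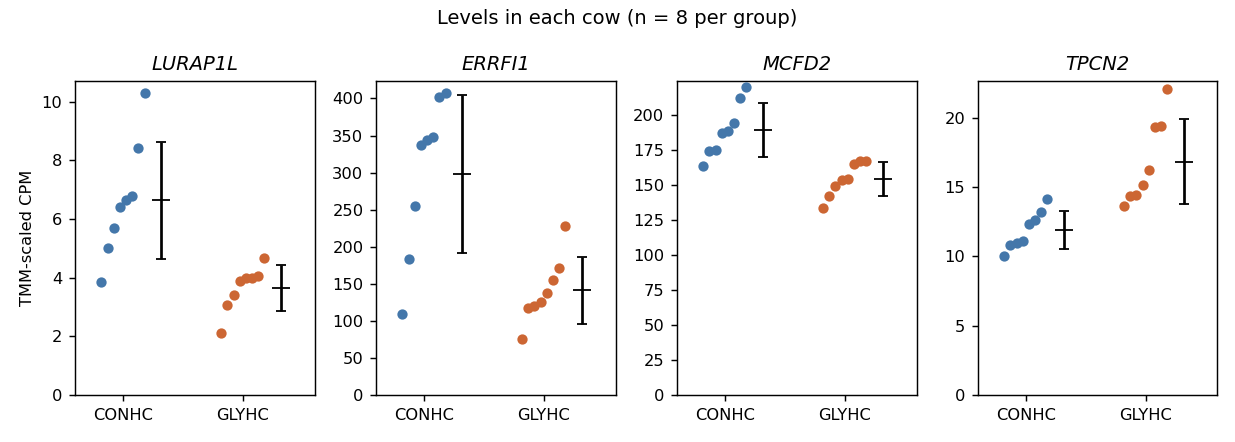
TMM-scaled CPM of LURAP1L, ERRFI1, MCFD2 and TPCN2 in each cow, sorted within CONHC (blue) and GLYHC (orange), with mean and SD in black (n = 8 per group). GLYHC cows sit lower for LURAP1L, ERRFI1 and MCFD2 and higher for TPCN2, with an overlap of the groups in each.

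At 30% concentrate, in other cows, the same contrast gave log2 fold changes of −0.12 (SE 0.33) for LURAP1L, 0.13 (0.34) for ERRFI1, 0.18 (0.11) for MCFD2 and −0.07 (0.16) for TPCN2. The test of the difference between the concentrate levels gave unadjusted p of 0.063, 0.009, 0.00083 and 0.0059 in this order. None passed adjustment over all genes (each adjusted p = 0.999). These genes were chosen for their difference in the GLYHC and CONHC cows, which this test also uses. Small unadjusted p values were therefore likely from the start, and no conclusion on concentrate is drawn from them. The signs at 30% were not fixed: without CONLC cow 169 LURAP1L was at 0.15, without GLYLC cow 912 ERRFI1 was at −0.13, and without CONLC cow 260 TPCN2 was at 0.0098. MCFD2 was at 0.087 without GLYLC cow 147.

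The DESeq2 calls depended on single cows. With 1 cow left out at a time, between 0 and 27 genes were called. There were 0 calls without CONHC cow 7 or GLYHC cow 117, 1 without CONHC cow 133, and 2 without CONHC cow 41 or 170. There were 9 without CONHC cow 208, 13 without CONHC cow 144 and 27 without CONHC cow 134. Without GLYHC cow 37 or 152 there were 11, and without GLYHC cow 154 there were 12. ERRFI1 and LURAP1L were each called in 11 of the 16 runs, TPCN2 in 9 and MCFD2 in 6. Their direction was the same in every one of the edgeR runs, which use the cows on which these genes were chosen.

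After these, the genes with the smallest p and a lower mean in GLYHC had varied functions. TSPAN6, a tetraspanin membrane protein, was 1 of the 2 genes without overlap. It lay between 32.6 and 38.7 CPM (median 34.4) in CONHC and between 25.8 and 32.5 (median 29.7) in GLYHC, with a log2 fold change of −0.23 (SE 0.06). The other was an unnamed gene, ENSBTAG00000046229, which was singled out after its values were seen, at 1.96 ± 0.068 CPM in CONHC and 1.38 ± 0.262 in GLYHC (SD, n = 8 each). BAG3, a partner of the HSP70 chaperones in clearing damaged proteins, had means of 42.0 ± 9.3 CPM in CONHC and 28.8 ± 4.73 in GLYHC.

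ACSS2, which turns acetate into acetyl-CoA for fat and sterol synthesis, measured 36.0, 63.0 and 104 CPM (lowest, median, highest) in CONHC and 14.2, 35.3 and 50.4 in GLYHC. Its log2 fold change was −0.95 (SE 0.25, unadjusted p = 0.0012). RNF125, a ubiquitin ligase that limits RIG-I signalling, had a log2 fold change of −0.70 (SE 0.19). RASGEF1B, an exchange factor for RAS-family GTPases, was at −0.58 (0.16), LRRC3 at −0.50 (0.13), TOB2, an antiproliferative protein, at −0.38 (0.10), and DNAAF2, which helps assemble axonemal dyneins, at −0.37 (0.10). In 6 of the 12 genes with a lower mean and the smallest p, the lowest CONHC value was that of cow 144.

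Genes with the smallest p and a higher mean in GLYHC were as varied in function. MFSD12, which is needed to import cysteine into lysosomes, had a log2 fold change of 0.71 (SE 0.18). It measured 6.75, 10.04 and 13.0 CPM in CONHC and 10.6, 15.4 and 25.0 in GLYHC (lowest, median, highest). TSPAN9, another tetraspanin, was at 0.53 (0.14). NSL1, a kinetochore subunit, was at 0.41 (0.11) and higher in the GLYHC cow in 62 of 64 pairs. AKAP1, which anchors protein kinase A to mitochondria, had 20.7 ± 1.52 CPM in CONHC and 24.2 ± 1.59 in GLYHC. DHRS1, a short-chain dehydrogenase, was at 0.55 (0.15), TMEM220 at 0.37 (0.10) and STK11IP, which binds the kinase LKB1, at 0.27 (0.07).

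Some of the largest fold changes came from a few cows. GABRR2, a subunit of a GABA-gated chloride channel, was at 4.43 CPM in GLYHC cow 32, 6.72 in cow 127 and 6.72 in cow 154. The other 5 GLYHC cows and all 8 CONHC cows were between 0 and 0.174 CPM. At 30% concentrate GLYLC cow 102 alone was high, at 3.53 CPM, beside at most 0.195 in the other GLYLC cows and 0.105 in CONLC. The log2 fold change there of 3.84 (SE 1.18) rested on this cow, without which GABRR2 had too few reads to be tested. REC8, a cohesin subunit of meiosis, was at 40.9 CPM in CONHC cow 41 and 13.9 in CONHC cow 144, and at most 0.486 CPM in the other 14 cows. Without cow 41 its log2 fold change went from −4.91 to −3.18.

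IFI6, an interferon-stimulated gene, was at 139 CPM in GLYHC cow 117 and 122 in cow 131, while the remaining GLYHC cows had 27.0 or less. Its medians were 13.99 CPM in CONHC and 13.6 in GLYHC, so the log2 fold change of 1.29 (SE 0.60) rested on these cows. It was 0.74 without cow 117 and 0.85 without cow 131.

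**Figure D3:**
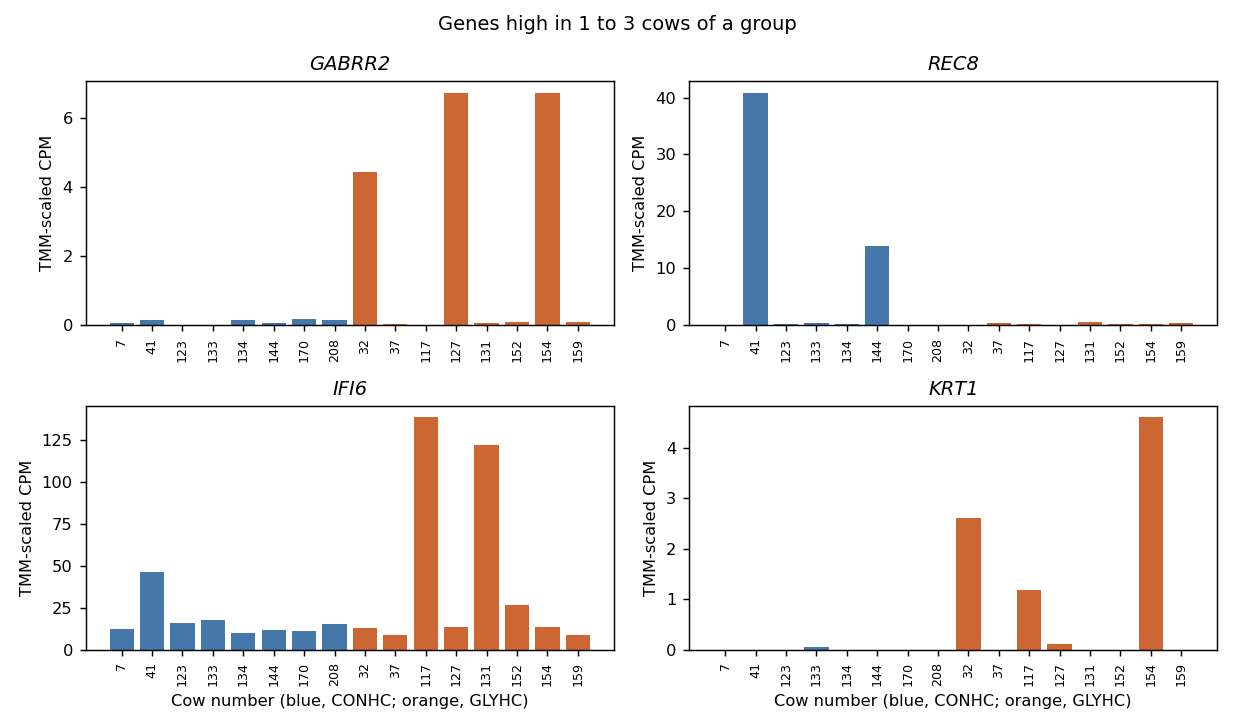
TMM-scaled CPM of GABRR2, REC8, IFI6 and KRT1 in each of the 16 cows (blue, CONHC; orange, GLYHC; cow numbers below). GABRR2 is high in GLYHC cows 32, 127 and 154, REC8 in CONHC cows 41 and 144, IFI6 in GLYHC cows 117 and 131, and KRT1 in GLYHC cows 154, 32 and 117.

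The pathways of the study's named genes were examined next. ERRFI1, MCFD2 and TPCN2 were chosen on these same cows, so the counts that hold them are a description. Over all genes, 2.26% were higher and 1.74% lower at an unadjusted p under 0.05. In the set of EGFR and ERK feedback genes, 3 of 23 genes were at an unadjusted p under 0.05, ERRFI1 with the lower mean in GLYHC. SPRED1, an inhibitor of ERK signalling, and ERBB2, a receptor of the EGFR family, had the higher mean, with log2 fold changes of 0.34 (SE 0.15) and 0.19 (0.09). The number of these genes higher below this p was 0 without CONHC cow 7 or 123 or GLYHC cow 131, and 4 without CONHC cow 134 or GLYHC cow 154. Of the COPII cargo export genes, which bud vesicles from the endoplasmic reticulum, 4 of 29 were below this p. MCFD2 and the cargo adaptor SEC24B (−0.17, SE 0.07) were lower, and the scaffold SEC16A (0.53, SE 0.19) and the coat protein SEC23A (0.30, SE 0.14) were higher. SEC16A in CONHC cow 134 was 88.5 CPM, above the 50.3 of the next CONHC cow. Without cow 134 there were 5 higher and 2 lower, and over the runs without each other cow 1 or 2 were higher and 1 or 2 lower. Of the 25 lysosomal and store-operated calcium channel genes, TPCN2 and TFEB, a transcription factor of lysosomal genes (0.25, SE 0.12), were below this p and had the higher mean, and in 12 of the 16 runs with 1 cow left out only 1 was. In the cadherin and catenin list 0 of 21 were, with CDH17 at 0.46 (SE 0.28) and CDH1 at 0.22 (SE 0.14).

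Among the lists of gene function, cholesterol synthesis had the lowest median. The liver builds cholesterol from acetyl-CoA through mevalonate, squalene and lanosterol, and SREBP2 (SREBF2) with its escort SCAP sets the transcription of most enzymes. Of 23 genes described, 21 had the lower mean in GLYHC, and the median log2 fold change was −0.19 beside 0.0046 for all genes. Of these, 6 were at an unadjusted p under 0.05 with a lower mean (1.74% of all genes) and 1 with a higher mean. Without GLYHC cow 37, or without GLYHC cow 131, the 6 became 10, and over all runs with 1 cow left out the median was between −0.26 and −0.17.

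HSD17B7, which removes a keto group in the late pathway, had the smallest p of the list. Its level was 79.4, 97.5 and 126 CPM (lowest, median, highest) in CONHC and 49.3, 70.8 and 97.6 in GLYHC, with a log2 fold change of −0.50 (SE 0.14, unadjusted p = 0.0027). LSS, which closes the sterol ring, was at 153, 160 and 209 CPM in CONHC and 91.6, 139 and 168 in GLYHC (−0.34, SE 0.11). GLYHC cows were thus lower at the median, with overlapping ranges. In the mevalonate part, IDI1 was at −0.38 (SE 0.15) and FDPS, which makes farnesyl diphosphate, at −0.42 (0.15).

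Among the steps after lanosterol, MSMO1 was at −0.51 (0.20) and DHCR7 at −0.43 (0.20). The exception below this p was SCAP, with 19.7 ± 2.57 CPM in CONHC and 22.4 ± 1.81 in GLYHC, and in 8 of the 16 runs with 1 cow left out no gene of the list was higher below this p. HMGCS1 at the entry of the pathway (−0.71, SE 0.39) and SQLE, which oxidises squalene (−0.59, SE 0.29), had large but uncertain differences and were singled out after their values were seen.

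Other cows at 30% concentrate gave the same sign in most of the list. There 21 of 23 genes had the lower mean in GLYLC, and the median log2 fold change was −0.27. Most of these enzymes are set by SREBP2, so at either level the genes are not separate observations. At an unadjusted p under 0.05, 8 genes of the list were lower, beside 188 of the 14857 genes tested at both levels. GLYLC cow 912 stood apart from its group, and leaving it out took the median of 8 smooth muscle markers at 30% concentrate from 0.91 to −0.067. Without this cow the cholesterol median was −0.26 and 22 genes had the lower mean. With all cows kept, IDI1 was at −0.46 (SE 0.16), DHCR7 at −0.69 (SE 0.24) and LSS at −0.34 (SE 0.15) at 30% concentrate. Each was at an unadjusted p under 0.05. Without cow 912 they were at −0.43, −0.60 and −0.28. LSS was then no longer below this p, nor was it without some other single cows. GLYLC cows 209 and 544 were above every other GLYLC cow for each of IDI1, DHCR7 and LSS. The smallest adjusted p of the interaction with concentrate over the list was 0.999. No gene of the list passed the test at either level.

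**Figure D4:**
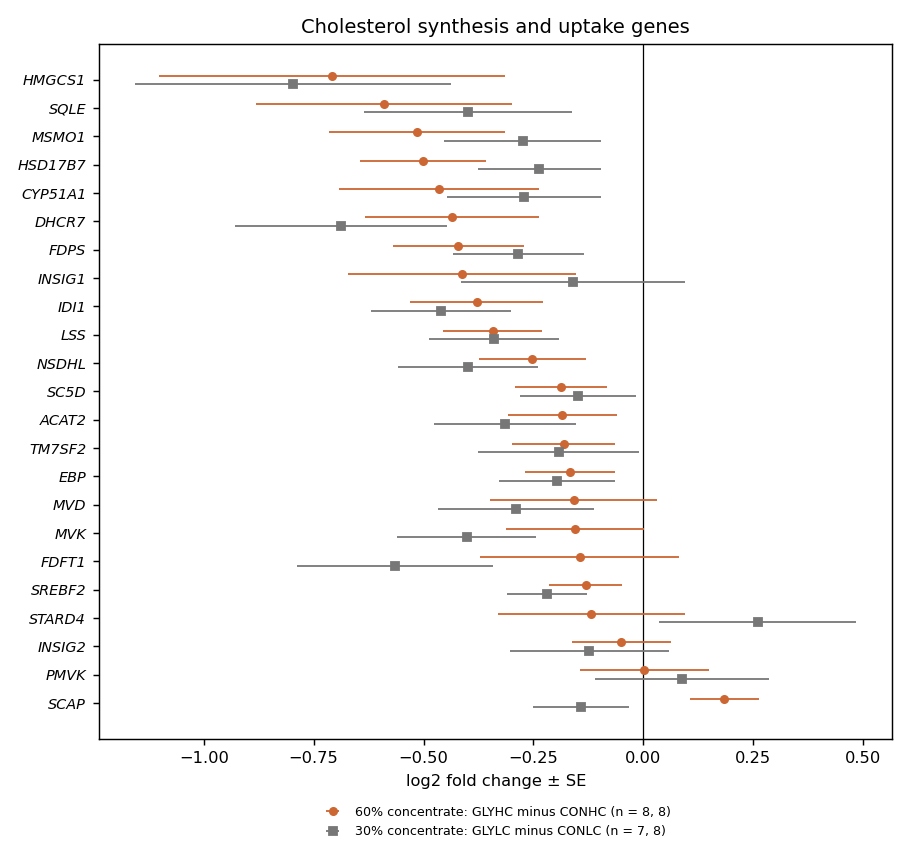
log2 fold change with SE of 23 cholesterol synthesis and uptake genes at 60% concentrate (orange, GLYHC minus CONHC) and in other cows at 30% concentrate (grey, GLYLC minus CONLC). 21 genes lie below 0 at 60% and 21 at 30%, and SCAP lies above 0 only at 60%.

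Of 27 lipogenesis and triglyceride synthesis genes, 15 had the higher and 12 the lower mean in GLYHC, and the list median was 0.018 (−0.053 without GLYHC cow 32). At an unadjusted p under 0.05, 4 were lower and 1 higher, beside 1.74% and 2.26% of all genes. FADS2, the delta-6 desaturase, was at 971, 1767 and 2264 CPM in CONHC and 695, 1132 and 1328 in GLYHC (−0.55, SE 0.17). ELOVL6, which elongates palmitate, was at −0.37 (SE 0.12), and THRSP, a lipogenic regulator, at −0.85 (0.35). SREBF1, the transcription factor that drives lipogenic genes, had the higher mean instead, at 64.1 ± 17.0 CPM in CONHC and 91.1 ± 20.97 in GLYHC (0.51, SE 0.18). At 30% concentrate ACSS2 was at −0.82 (SE 0.37), FADS2 at −0.53 (0.37) and ELOVL6 at −0.42 (0.29), and SREBF1 at −0.19 (0.30). Without GLYLC cow 912 FADS2 was at −0.33, ELOVL6 at −0.26 and SREBF1 at −0.073, and without GLYLC cow 209 FADS2 was at −0.87 and SREBF1 at −0.44.

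Fatty acid oxidation and ketogenesis genes had the highest median of these lists, 0.13. Of 29 genes, 23 were higher in GLYHC, beside 7701 of all 14987 genes. HADHA, a subunit of the mitochondrial trifunctional protein, was at 0.27 (SE 0.10) and ACADVL, the very long-chain acyl-CoA dehydrogenase, at 0.19 (0.09), and these were the members below an unadjusted p of 0.05. Without CONHC cow 134 there were 11 such genes and without GLYHC cow 127 there were 4, whereas without CONHC cow 7, 41, 123 or 133 or GLYHC cow 32 or 159 there was 1. At 30% concentrate the list median was −0.041, with 19 of 29 genes lower, and without GLYLC cow 912 it was 0.041, with 12 lower.

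Genes of glucose synthesis mostly had higher means in GLYHC. Of 22 gluconeogenesis and propionate entry genes, 17 were higher, beside 7701 of all 14987 genes. Of these 17, 3 were at an unadjusted p under 0.05, beside 2.26% of all genes. This count was 2 in 9 of the 16 runs with 1 cow left out. Over all 16 runs between 13 and 17 genes had the higher mean. GPT2, the mitochondrial alanine aminotransferase, was at 7.17, 10.3 and 13.8 CPM in CONHC and 9.51, 13.9 and 20.6 in GLYHC (0.45, SE 0.15). PC, pyruvate carboxylase, which feeds oxaloacetate into glucose synthesis, was at 0.51 (0.19), and the glucagon receptor GCGR at 0.15 (0.07), which became 0.10 and was no longer below this p without GLYHC cow 117. At 30% concentrate 14 of the 22 genes had the lower mean, 2 of them below this p, and the list median was −0.089. Without GLYLC cow 912 the median was −0.055, with 13 lower. With all cows kept at 30% concentrate, GPT2 had the opposite sign (−0.88, SE 0.20). The difference between levels was 1.33, with an adjusted p of 0.251 in edgeR and 0.00824 in DESeq2, which called it as the only gene.

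Of 26 genes of glycine and serine metabolism, 15 had the higher and 11 the lower mean in GLYHC, and the list median was 0.027. At an unadjusted p under 0.05, 4 were higher and 1 lower, beside 2.26% and 1.74% of all genes. The number of higher genes was 3 in 4 of the 16 runs with 1 cow left out. PHGDH, the first enzyme of serine synthesis, was at 0.37 (SE 0.14), SHMT2, which converts serine to glycine in mitochondria, at 0.33 (0.13), AGXT, which makes glycine from glyoxylate, at 0.28 (0.10) and GLYCTK, glycerate kinase, at 0.50 (0.21). SRR, serine racemase, was at −0.86 (0.39) on a level under 1 CPM, and 9 of the 16 runs with 1 cow left out had no lower gene below this p. At 30% concentrate 20 of the 26 genes had the lower mean, and the list median was −0.13. Without GLYLC cow 912 the median was −0.057, with 16 lower. With all cows kept at 30% concentrate, PHGDH was at −0.41 (0.21), SHMT2 at −0.36 (0.17) and AGXT at −0.20 (0.21). SHMT2 was there at −0.23 without GLYLC cow 912, and AGXT at −0.079 without GLYLC cow 102. The interaction p values for PHGDH and SHMT2 were 0.005 and 0.0031 before adjustment and 0.999 after. Both genes were named for a small p in the GLYHC and CONHC cows, which the interaction test also uses. No conclusion on concentrate is therefore drawn from their unadjusted values. Of 29 amino acid transporters, 18 had the higher and 11 the lower mean in GLYHC. Only SLC38A1 was below an unadjusted p of 0.05, at 0.343 ± 0.0912 CPM in CONHC and 0.539 ± 0.165 in GLYHC. That number became 4 without GLYHC cow 127 or 154, and 0 without CONHC cow 41, 144 or 208 or GLYHC cow 117 or 152.

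Among genes of xenobiotic metabolism, phase II enzymes were below an unadjusted p of 0.05 more often than phase I enzymes, and this difference was not tested. Of 32 phase I enzymes and sensors, 1 was at an unadjusted p under 0.05, CYP2S1, at 0.324 ± 0.18 CPM in CONHC and 0.604 ± 0.313 in GLYHC, and the list median was −0.015. Without CONHC cow 134 there were 3 with a higher mean, and without CONHC cow 7, 144 or 208 or GLYHC cow 117 there were 0. Of 31 phase II enzymes, 22 had the lower mean, and below this p 4 were lower and 2 higher, beside 1.74% and 2.26% of all genes. GSTM3, a glutathione transferase, was at 175, 216 and 249 CPM in CONHC and 116, 165 and 230 in GLYHC (−0.37, SE 0.12). SULT2A1, a sulfotransferase of steroids and bile acids, was at −0.23 (0.10) and MGST1, the microsomal glutathione transferase, at −0.24 (0.11).

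GSTA3 varied widely, from 5.15 to 85.3 CPM in CONHC and from 1.83 to 46.5 in GLYHC, and its log2 fold change of −1.40 became −2.43 without GLYHC cow 154 and −0.91 without CONHC cow 170. GSTT2 (0.41, SE 0.14) and SULT1C2 (0.76, SE 0.32) had the higher mean. The number of phase II genes with a lower mean below this p was 1 without CONHC cow 208, GLYHC cow 32 or GLYHC cow 127, and 2 without GLYHC cow 37 or 117. Glutathione transferases have near-identical relatives, between which uniquely mapped reads can be lost.

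Of 30 NRF2 targets and antioxidant enzymes, NQO2, a quinone reductase, was at 0.21 (SE 0.08) and SOD2, the mitochondrial superoxide dismutase, at 0.22 (0.10). The list median was −0.0089, and with 1 cow left out between 1 and 3 genes were higher below this p. Of 21 heme and bilirubin genes 0 were below this p, with ALAS1, the rate-limiting enzyme of heme synthesis, at −0.20 (SE 0.14), or −0.11 without CONHC cow 170, and UROS at −0.28 (0.17), or −0.10 without CONHC cow 41. Of 22 bile acid genes, ABCG8, which exports sterols into bile together with ABCG5, was at 0.41 (0.18), and between 0 and 2 were higher below this p with 1 cow left out.

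In the circadian clock list, 3 of 20 genes were higher and 2 lower at an unadjusted p under 0.05, beside 2.26% and 1.74% of all genes. DBP and TEF, transcription factors driven by the clock, were at 0.32 (SE 0.12) and 0.33 (0.13), and NR1D1, a repressor of ARNTL, at 0.68 (0.29). ARNTL, a core activator of the clock, was at 1.99, 5.06 and 8.15 CPM in CONHC and 1.61, 3.199 and 4.29 in GLYHC (−0.72, SE 0.27), and CRY1 at −0.60 (0.22). Levels of NR1D1 ran from 5.97 to 19.8 CPM in CONHC and from 10.7 to 42.2 in GLYHC, and without GLYHC cow 131 its log2 fold change was 0.42. Without GLYHC cow 127, 5 clock genes were higher below this p. The hour of each biopsy was not in the labels, and its part in these values was not tested.

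Interferon-stimulated genes had a list median of −0.099, with 23 of 30 lower in GLYHC, beside 7286 of all 14987 genes. Of these 23, 4 were at an unadjusted p under 0.05, beside 1.74% of all genes. The median was −0.26 without GLYHC cow 117 and −0.030 without CONHC cow 41, when 16 were lower. DDX58, which encodes the RNA sensor RIG-I, was at −0.34 (SE 0.12), IFIT5 at −0.29 (0.11), HERC5, the ligase of ISG15, at −0.42 (0.17) and MX1, a GTPase that restricts RNA viruses, at −0.63 (0.28). The number of lower genes below this p was 12 without GLYHC cow 117, and 1 without CONHC cow 41. It was 2 without CONHC cow 134 or 208 and without GLYHC cow 32, 37 or 131. With scaling by total reads alone, 18 of 30 were lower, 1 of them below this p. At 30% concentrate 20 of 30 had the higher mean in GLYLC, and the list median was 0.105. Without GLYLC cow 912 that median was −0.063, with 19 lower. GLYHC cow 117, the cow with high IFI6, also had the highest sum of T and NK cell markers, 125 CPM beside 80.1 or less in the other GLYHC cows.

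Stress and growth lists held few genes below an unadjusted p of 0.05. DDIT4, an mTORC1 inhibitor induced by stress and glucocorticoids, was at 8.10, 16.5 and 47.7 CPM in CONHC and 5.74, 9.46 and 19.8 in GLYHC (−1.18, SE 0.37). ATF5, a transcription factor of the integrated stress response, was at 0.44 (0.16), and these were the only such genes of 30 endoplasmic reticulum stress and ATF4 targets. TP53INP1, a p53-induced gene, was at −0.64 (0.22), the only such gene of 21. MCM2 and MCM5, subunits of the replicative helicase, were at 0.35 (0.15) and 0.36 (0.17), 2 of 26 cell division genes. This count was 0 without CONHC cow 7 or 144 or GLYHC cow 127, 131, 152 or 154, and the list median of 0.039 ran from −0.12 (without GLYHC cow 131) to 0.24 (without CONHC cow 41).

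The acute phase protein ORM1 was at 0.56 (SE 0.25), the only one of 27, and in 8 of the 16 runs with 1 cow left out there was none. Without GLYHC cow 32, 3 acute phase genes and 3 immediate early genes were lower below this p. In the full set of cows 0 of 28 immediate early genes and 0 of 29 respiratory chain genes were. In these lists BTG2 was at −0.45 (0.22), JUNB at 0.54 (0.35), which became 0.15 without GLYHC cow 32, UQCRC1 at 0.16 (0.08) and ATP5F1B at 0.12 (0.07).

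**Figure D5:**
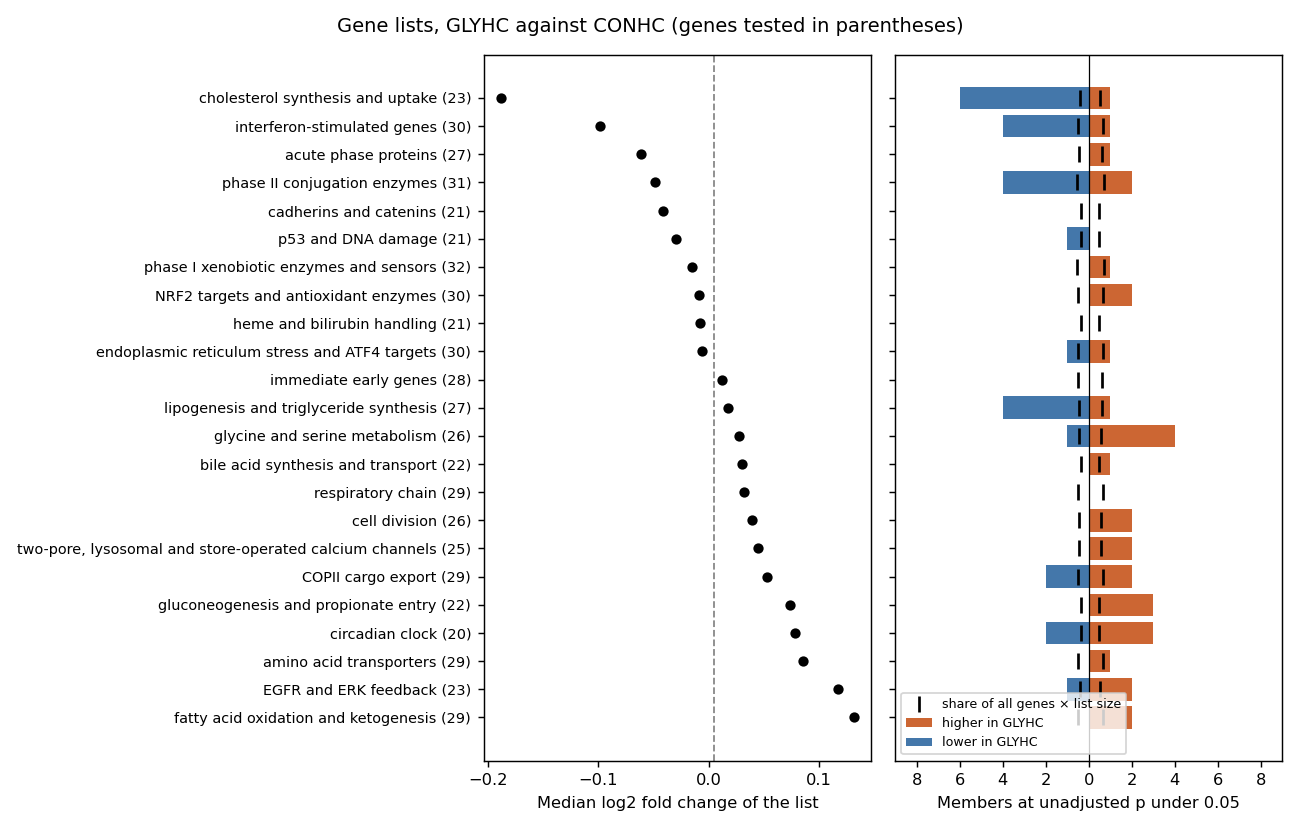
Left, median log2 fold change (GLYHC minus CONHC) of each of 23 gene lists, with the median of all 14987 genes as a dashed line; right, number of members at an unadjusted p under 0.05 with the higher (orange) or lower (blue) mean in GLYHC, and ticks at 2.26% and 1.74% of the list size. Cholesterol synthesis has the lowest median and 6 lower members, and fatty acid oxidation the highest median with 2 higher members.

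Markers of other cell types were examined as well. In bulk tissue fewer cells of a type and less RNA per cell cannot be told apart. Stellate cell and fibroblast markers had a median of −0.21 (−0.13 without CONHC cow 133 and −0.14 without GLYHC cow 117). Of 15 markers, 13 were lower in GLYHC, beside 7286 of all 14987 genes. HAND2, a transcription factor of stellate cells, was at −0.44 (SE 0.13) and the proteoglycan DCN at 66.6, 78.4 and 98.9 CPM in CONHC and 42.2, 64.2 and 71.5 in GLYHC (−0.34, SE 0.10). The summed markers lay between 244 and 407 CPM in CONHC and between 169 and 337 in GLYHC. Of 8 smooth muscle markers, ACTA2 (−0.75, SE 0.28) and LMOD1 (−0.40, SE 0.18) had the lower mean below an unadjusted p of 0.05, a count of 1 to 3 with 1 cow left out, and the sums ran from 71.7 to 290 CPM in CONHC and from 70.6 to 220 in GLYHC. The part of these cell types in the other results was not tested.

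The hepatocyte, endothelial, bile duct, macrophage, T and NK cell, B and plasma cell and neutrophil lists had medians between −0.069 and 0.10. Of the endothelial markers only LYVE1 (−0.22, SE 0.10) and of the hepatocyte markers only APOA2 (−0.22, SE 0.09) were below an unadjusted p of 0.05, and with 1 cow left out these counts were 0 or 1 and between 0 and 2. Of macrophage, T and NK cell, B and plasma cell, neutrophil and bile duct markers 0 were, although 16 of 17 T and NK cell markers had the higher mean. That number was 5 without GLYHC cow 117 and 10 without GLYHC cow 159. Hemoglobin HBB was at −2.17 (SE 0.62), on levels of 0.0738 to 12.7 CPM in CONHC and 0.346 to 1.98 in GLYHC, and 3 red cell markers had at least 20 reads, with a median of −0.47.

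Markers of skin, fat and gut were read at low levels, with a few exceptions. Of epidermal keratins few reads were found, and 5 of the 11 epidermis markers, including IVL at 0 reads and LOR at 2, were below the 20-read minimum. KRT1 was at 4.60 CPM in GLYHC cow 154, 2.60 in cow 32 and 1.19 in cow 117, and at most 0.117 in the other 13 cows. KRT10 ranged from 0.326 to 0.85 CPM in CONHC and from 0.446 to 3.18 in GLYHC (1.47, SE 0.39), and KRT14 reached 0.136 CPM in CONHC and 0.659 in GLYHC. The summed epidermis markers of GLYHC cows 154 (10.2 CPM), 32 (7.0), 37 (6.1) and 117 (5.0) were above the highest CONHC cow (3.5). Without these 4 cows edgeR again called 0 genes, and cholesterol synthesis had 22 of 23 genes lower with a median of −0.32. In the same run cell division had 24 of 26 genes higher with a median of 0.43, lipogenesis 20 of 27 lower with a median of −0.12, interferon-stimulated genes 25 of 30 lower with a median of −0.22, and fatty acid oxidation 22 of 29 higher with 0 below an unadjusted p of 0.05. DESeq2 then called 14 genes, 1 of them among its 5.

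Adipocyte markers were lower in 6 of 6 genes with a median of −0.87, and 0 were below an unadjusted p of 0.05. The median was −0.23 without CONHC cow 7 and −1.36 without GLYHC cow 127. ADIPOQ was at most 9.54 CPM in CONHC and 3.27 in GLYHC, with medians of 0.34 and 0.0431, and without GLYHC cow 127 the number of lower genes below this p was 3. The summed markers were highest in CONHC cows 7 (38.0 CPM) and 144 (33.3) and GLYHC cow 127 (28.5). Without these 3 cows edgeR called 0 genes and DESeq2 9, 3 of them among its 5, the cholesterol median was −0.20, the adipocyte median −0.39, and 19 of 26 cell division genes were lower with a median of −0.17. APOA4, an apolipoprotein made by intestine and also by liver, ran from 20.02 to 199.9 CPM in CONHC and from 38.2 to 365 in GLYHC (1.46, SE 0.57). LGALS4 was at 0.24 (0.10), and the defining intestinal markers SI, LCT and ALPI were at 0 reads in all 16 libraries.

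Over all genes, the sign of the difference at 60% concentrate was compared with that at 30%, in separate cows. Of the 14857 genes tested at both levels 46.4% had the same sign (46.7% without GLYLC cow 912). Of the 588 such genes at an unadjusted p under 0.05 at 60%, 42.9% had the same sign (48.0% without that cow). Of 30 genes below this p at both levels, 15 had the same sign, and without cow 912 there were 21, of which 12 did. Among these 12 were GABRR2, which rested on GLYLC cow 102 at 30%, IDI1 and DHCR7, the dehydrogenase RDH11 (−0.34, SE 0.12), the checkpoint kinase CHEK1 (−0.41, SE 0.17) and the protease inhibitor SERPINB9 (−0.32, SE 0.14), the last 3 singled out after their values were seen. The edgeR test of the difference between the levels called 0 of 15916 genes, with 670 at an unadjusted p under 0.05, a smallest adjusted p of 0.251 and 1 call by DESeq2.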

How the data were processed

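Polyadenylated RNA of week 16 liver biopsies was sequenced in paired reads from stranded libraries, 1 library per cow (8 GLYHC, 8 CONHC; 8 CONLC and 7 GLYLC for comparison). The authors trimmed reads with Trim Galore, aligned them to UMD3.1 with HISAT2 2.1.0, counted uniquely mapped reads with HTSeq 0.8.0 and deposited raw counts per gene. How strand was handled in counting is not given in the sources used here, so overlapping antisense genes are uncertain. The deposited normalized table was not used.

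Groups came from the labels, and no cow number is shared between groups. Genes with at least 20 reads over the 16 libraries were tested with edgeR 4.0.16 (TMM, quasi-likelihood F test, R 4.3.3), and called at p under 0.05 and Benjamini-Hochberg adjusted p under 0.1. The test of the difference between concentrate levels used all 31 libraries, and that at 30% concentrate the 15 others. DESeq2 1.42.0 was an alternative; others were RLE, upper-quartile and total-count scaling, other filters, a robust fit, all 31 libraries, limma-voom, thinned counts, depth as covariate and each cow left out (at 30% concentrate chosen after seeing the data). Levels are CPM with library sizes scaled by TMM factors, and ± is the SD over 8 cows. Gene groups are described by counts and medians, without a set test.

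Named were the study's genes, genes called by either tool, the 12 genes per direction with the smallest p, and list members at an unadjusted p under 0.05 (or the 2 with the smallest p). The members and lists were chosen with earlier results of these data known. Some genes that the rule or the lists cover are not reported here, and list counts leave them out.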

Additional observations from a re-analysis of the deposited data

Results flagged for a closer look

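In each group of 8 cows the highest and the lowest value of every named gene, marker sum and read total was compared with its neighbour by Dixon's ratio at the 95% level. Of 242 such groups of values 30 (12.4%) held a cow that stood apart. A share of 1 in 20 by chance holds only for independent values with a normal spread. CPM were not log-transformed here, and marker sums hold some of the named genes, so this share was not compared with chance. Values are TMM-scaled CPM.

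Among CONHC cows, cow 41 stood apart for REC8 (40.9), IFI6 (46.1) and LTF (22.6), cow 134 for SHMT2 (89.6), SEC16A (88.5), APOA4 (199.9) and the summed intestinal markers (223), and cow 170 for GSTA3 (85.3), GZMB (0.349) and IL7R (3.84). Cow 133 stood apart for KRT1 (0.0554), SLC38A1 (0.554) and the summed red cell markers (14.02). Its KRT1 value was flagged only because the next CONHC cow was at 0, and it is too close to 0 to set this cow apart. Cow 123 stood apart for TSPAN6 (38.7) and the summed markers of smooth muscle (290) and of B and plasma cells (65.3). Cow 7 had the highest number of assigned reads, 29881860. All of these were the highest of their group.

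Among GLYHC cows, cow 117 was the highest for ACADVL (578), TFEB (5.25) and the summed T and NK cell markers (125), and the lowest for DCN (42.2) and the summed stellate and fibroblast markers (169). Cow 32 was the highest for BTG2 (28.2) and UROS (6.48), cow 131 for PHGDH (186) and NR1D1 (42.2) and cow 154 for GSTA3 (46.5). Cow 127 was the highest for ADIPOQ (3.27), the summed adipocyte markers (28.5) and the summed smooth muscle markers (220).

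The glyphosate difference of GPT2 differed between the concentrate levels by 1.33 on the log2 scale in DESeq2 (adjusted p = 0.00824). In edgeR the same difference had an adjusted p of 0.251.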

How the results depend on the processing

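No alternative fitted with edgeR or limma-voom called a gene between GLYHC and CONHC, and DESeq2 on all 31 libraries called 0. DESeq2 on the 16 libraries called 5, with and without independent filtering. With 1 cow left out, edgeR called 0 genes each time, and DESeq2 between 0 and 27. After leaving out the 4 cows highest in epidermis markers DESeq2 called 14, and after leaving out the 3 highest in adipocyte markers 9. These runs without chosen cows, and all DESeq2 runs with cows left out, were chosen after seeing the data. Genes at an unadjusted p under 0.05 numbered between 277 and 433 higher and between 234 and 341 lower with 1 cow left out. Scaling by total reads alone gave 602 higher and 124 lower. That setting moved the median log2 fold change of all genes from 0.0046 to 0.052. DESeq2 called 1 gene for the interaction, and without GLYLC cow 912 edgeR called 0. The log2 difference in assigned reads was between 0.235 and 0.449 with 1 cow left out. None of the 107 named genes reversed sign in any alternative that gave a value. Many were named for a small p in these same cows, which the alternatives refit, so an unchanged sign was likely from the start. In 8 of 3302 such values a gene passed the threshold, all in DESeq2. No paired analysis was possible because the groups share no replicate number. In genes with under 1 CPM (such as KRT1, KRT14, SRR and CYP2S1) a few reads per cow set the value.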
